A study of Mus musculus with 6 samples.

Results

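Receptors for the Fc part of IgG, together with the genes that carry their signal, were followed in CD11b+ cells of the brain as a set of 10 genes chosen by name from the 19225 listed in the deposited table. All 10 were listed. The set held the activating receptor genes *Fcgr1*, *Fcgr3* and *Fcgr4*, the inhibitory receptor gene *Fcgr2b*, the signalling subunit gene *Fcer1g*, the signalling genes *Syk*, *Plcg2* and *Inpp5d*, and the relatives *Fcrls* and *Fcgrt*. RNA was compared between 3 male mice labelled *Cnr1*-/- (strain label Cnr1 tm1Zim, genotype d/d) and 3 male mice labelled *Cnr1*+/+ (strain label C57BL6/J, genotype wt/wt), all labelled 3 months old, although the methods give a younger age for the experiments. The mutant allele is constitutive and carries a neomycin cassette in the coding region of the cannabinoid receptor 1 gene, so every cell of the mouse is affected. None of the mice had been stressed. Cells were taken from brain without the cerebellum and enriched with CD11b magnetic beads, and each mouse gave 1 library of 3′ transcript ends. The comparison asked whether loss of the receptor goes with altered expression of microglial genes, here those through which microglia sense IgG.

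Fcγ receptors bind antibody that coats a particle or forms a complex, and on macrophages and microglia they start engulfment, release of reactive oxygen and cytokine production. The activating receptors carry no signalling motif of their own in the mouse and depend on a dimer of the γ chain encoded by *Fcer1g*, whose ITAM (a tyrosine-based activation motif) is phosphorylated by Src-family kinases and then recruits the kinase SYK. SYK leads on to phospholipase Cγ2, encoded by *Plcg2*, and to PI3K. The single inhibitory receptor, FcγRIIB, carries an ITIM (the inhibitory counterpart of the ITAM), which recruits the lipid phosphatase SHIP1, encoded by *Inpp5d*, and so opposes the PI3K product.

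Of these genes, 4, namely *Fcgr2b*, *Fcgr4*, *Fcgr3* and *Fcer1g*, lie within 275.8 kb of chromosome 1 in the mm10 coordinates of the table. *Fcgr2b* spans chr1:170958617-170976548 on the minus strand, *Fcgr4* spans chr1:171018920-171029762 on the plus strand, and *Fcgr3* spans chr1:171051174-171064936 on the minus strand. *Fcer1g* is the shortest of the set and spans chr1:171229572-171234366 on the minus strand. Only 9 listed genes lie inside this stretch. *Inpp5d* lies elsewhere on the same chromosome (chr1:87620312-87720508, plus strand). *Fcrls* (chr3:87250758-87263739) and *Fcgr1* (chr3:96282909-96293970) are both on the minus strand of chromosome 3. *Fcgrt* (chr7:45092990-45103852, minus strand), *Plcg2* (chr8:117498291-117635143, plus strand) and *Syk* (chr13:52583173-52648793, plus strand) complete the set. No listed gene overlapped any of the 10.

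The sequences just before the annotated starts of the 4 Fcγ receptor genes are shown because these genes shared a cell preparation, and 3 of them a locus, yet differed widely in level. Each line gives 250 bases of GRCm38.p6 from RefSeq, 5′ to 3′ on the gene's own strand and ending at the base before the start. Capitals mark GAGGAAG, the core letters of sites that the myeloid transcription factor PU.1 is known to bind, searched on both strands; here it was found as its complement, CTTCCTC. The windows are chr3:96293970-96294219 for *Fcgr1*, chr1:170976072-170976321 for *Fcgr2b*, chr1:171059404-171059653 for *Fcgr3* and chr1:171018676-171018925 for *Fcgr4*.
Fcgr1: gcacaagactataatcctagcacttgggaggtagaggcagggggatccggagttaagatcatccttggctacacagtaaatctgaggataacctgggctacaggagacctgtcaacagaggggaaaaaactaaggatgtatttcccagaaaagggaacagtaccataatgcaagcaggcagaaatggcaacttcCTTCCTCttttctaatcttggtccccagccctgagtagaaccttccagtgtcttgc
Fcgr2b: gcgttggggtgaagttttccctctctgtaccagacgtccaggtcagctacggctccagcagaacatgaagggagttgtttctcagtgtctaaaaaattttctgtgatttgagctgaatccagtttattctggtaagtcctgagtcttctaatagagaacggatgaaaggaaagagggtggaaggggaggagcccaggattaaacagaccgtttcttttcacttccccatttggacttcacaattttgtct
Fcgr3: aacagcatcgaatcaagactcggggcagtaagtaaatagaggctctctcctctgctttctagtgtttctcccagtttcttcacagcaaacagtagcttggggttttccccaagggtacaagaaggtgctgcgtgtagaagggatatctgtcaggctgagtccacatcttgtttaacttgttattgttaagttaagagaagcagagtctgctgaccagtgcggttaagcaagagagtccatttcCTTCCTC
Fcgr4: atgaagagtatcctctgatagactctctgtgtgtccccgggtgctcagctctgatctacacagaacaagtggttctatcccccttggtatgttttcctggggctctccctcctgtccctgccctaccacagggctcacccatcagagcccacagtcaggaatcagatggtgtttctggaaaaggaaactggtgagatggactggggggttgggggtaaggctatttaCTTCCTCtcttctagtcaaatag

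The letters were present once before each activating receptor gene and ended 49 bases before the start of *Fcgr1*, 0 bases before that of *Fcgr3* and 16 bases before that of *Fcgr4*. They were not in the window of *Fcgr2b*. All 10 members had a window in the table, and 5 of them held the letters, the other two being *Fcrls* and *Inpp5d*. Of all 32851 windows of this length, 10.6% held them, and of all 27025 genes with a window, 12% did. A match is a run of letters and was not tested as a site. The RefSeq table holds a second window for *Fcgr3*, shifted by 9 bases. Both of these and the window of *Fcgr2b* lie wholly inside the gene spans of the deposited table, so that sequence before the starts given there was not searched for these genes.

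Levels are in cpm, that is, reads scaled to a fixed library total, with library sizes normalised by the authors with TMM. The listed genes held 50.1%, 54.1% and 54.3% of that total in *Cnr1*+/+, and 53.5%, 59.1% and 58.1% in *Cnr1*-/-. How far this enters the differences given below was not tested. Since the libraries read each transcript from its 3′ end, a value was not divided by transcript length and is taken here as a measure of transcript ends. Fits were made with limma on log2 (cpm + 0.1) for the 6659 genes whose mean reached 10 cpm. Nominal p is the unadjusted p of that fit, and adjusted p is its Benjamini-Hochberg value over all 6659 genes. With 3 libraries against 3, a two-sided exact permutation test cannot give a p below 0.1. The value of 1 read corresponded to an effective depth of 7708813 to 10723825 reads per library, so that a value of 0 allows up to 0.280 to 0.389 cpm, for counting error only. For *Cnr1* itself the value was 0 in each *Cnr1*+/+ library, and 1.41, 1.21 and 1.79 cpm in the libraries labelled *Cnr1*-/-. This goes against the labels, and exchanged labels cannot be told apart here from reads of the targeted allele. All directions given are those of the labels and would turn if these had been exchanged.

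The 10 microglia markers, among them *P2ry12*, *Tmem119* and *Cx3cr1*, were all listed and summed to between 14521 and 16741 cpm. The library labelled *Cnr1*-/- replicate 2 stood apart in blood genes. There the sum of the 9 listed of 10 neutrophil markers was 4067 cpm, whereas the other 5 libraries had 266 to 524 cpm, and the sum of the 6 erythrocyte markers was 2333 cpm, whereas the others had 136 to 237 cpm. The 6 monocyte markers summed to 107 cpm in that library and to 28.8 to 36.4 cpm in the others. Over all 6 libraries, the sum of the 8 border-associated macrophage markers ranged from 304 to 431 cpm and that of the 4 listed of 6 B cell markers from 108 to 168 cpm. The 5 listed of 6 endothelial markers summed to between 14.7 and 23.1 cpm, the 6 neuron markers to between 40.4 and 47.9 cpm, the 5 astrocyte markers to between 290 and 539 cpm and the 5 oligodendrocyte markers to between 396 and 833 cpm. Only 1 of 7 NK and T cell markers and 1 of 5 mast cell and basophil markers were listed, at no more than 0.716 and 1.119 cpm. In such bulk samples fewer cells of a type and less RNA per cell cannot be told apart.

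None of the 9 genes that reached the minimum mean passed the test between the genotype labels after adjustment over all genes tested. Of these 9, 1 (*Inpp5d*) had a nominal p under 0.05 and was higher in the libraries labelled *Cnr1*-/-, against 6.02% of all 6659 genes in either direction and 5.09% in that direction (0.931% were lower). The limma adjusted p of the 9 genes lay between 0.809 and 0.967. Among them, 6 had a log2 fold change above 0 and 3 below 0, with a median of 0.11, where the median over all genes tested was 0.08 and 68.4% of them lay above 0. Centring each library on its median gave medians of 0.03 for the set and 0.0084 for all genes, and quantile normalisation gave 0.01 and -0.0014. The median of the set was 0.05 without *Cnr1*+/+ replicate 1 and 0.19 without *Cnr1*+/+ replicate 3. With quantile normalisation the log2 fold change was 0.010 for *Fcgr3* and 0.018 for *Plcg2*. On the same scale it was 0.09 for *Fcgr2b*, 0.12 for *Fcer1g*, -0.15 for *Fcgr1*, -0.09 for *Fcrls* and -0.20 for *Fcgrt*. The groups did not overlap for 2 of the 10 genes, *Fcer1g* and *Inpp5d*, both higher in *Cnr1*-/-. The background for groups that did not overlap was 11% in either direction and 8.85% in that direction (2.13% lay lower).

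**Figure D1:**
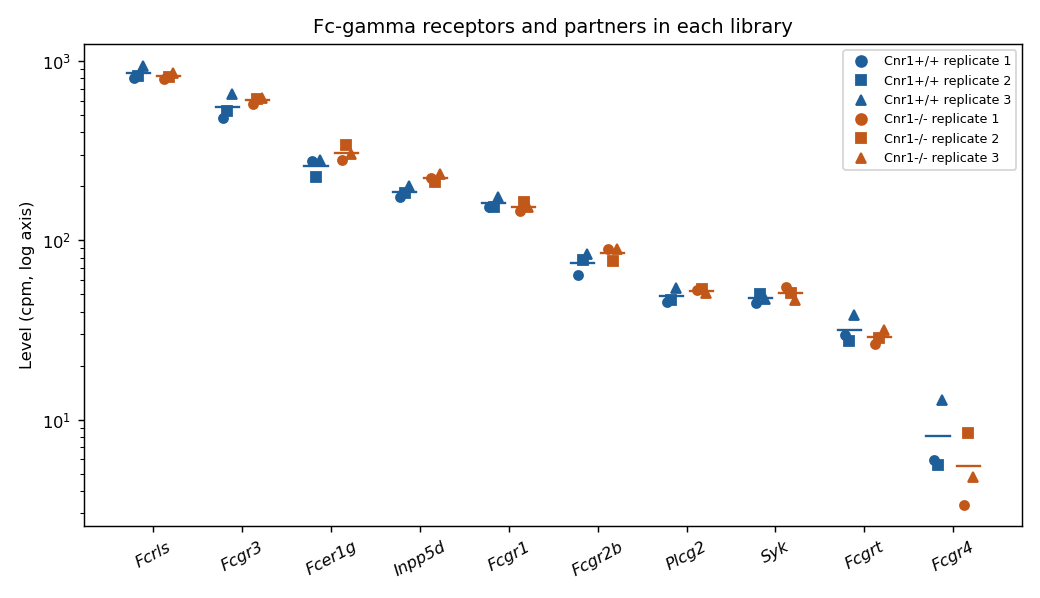
Level of each gene in each library, in cpm on a log axis, ordered by the mean over the 6 libraries. Symbols give the replicate, colours the genotype label and bars the group means. *Fcrls* and *Fcgr3* lie at the top and *Fcgr4* at the bottom in every library, and the groups are apart only for *Fcer1g* and *Inpp5d*.

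Among the receptors, *Fcgr3* was by far the most abundant. It encodes FcγRIII, a low-affinity activating receptor. Its levels were 481, 529 and 653 cpm in *Cnr1*+/+ and 575, 617 and 625 cpm in *Cnr1*-/-. The *Cnr1*+/+ libraries held both the lowest and the highest value, so that the groups overlapped. The group means were 554 ± 88.6 cpm (SD, n = 3) and 606 ± 27.1 cpm (SD, n = 3). The log2 fold change was 0.14 with a standard error of 0.12, a fold of 1.10 with a 95% interval of 0.924 to 1.31 (limma adjusted p = 0.908). Without the library labelled *Cnr1*+/+ replicate 3, which had the highest *Fcgr3* of all, the log2 fold change was 0.26 and passed the nominal threshold (limma adjusted p = 0.499), as did 600 of the 6614 genes tested in that fit. Without *Cnr1*+/+ replicate 1, which had the lowest, it was 0.04.

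*Fcgr1* encodes FcγRI, the receptor that binds single IgG molecules with high affinity. It had 153, 154 and 175 cpm in *Cnr1*+/+ and 145, 163 and 153 cpm in *Cnr1*-/-. The 6 values lay within 1.21-fold of each other and the groups overlapped. The log2 fold change was -0.06 (standard error 0.12), a fold of 0.958 with a 95% interval of 0.804 to 1.14 (limma adjusted p = 0.963). With each library left out the log2 fold change ranged from -0.11, without *Cnr1*-/- replicate 2, to 0.0020, without *Cnr1*+/+ replicate 3.

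*Fcgr4* encodes FcγRIV, an activating receptor known from monocytes, macrophages and neutrophils. It was the least abundant member, at 5.97, 5.59 and 12.8 cpm in *Cnr1*+/+ and 3.36, 8.39 and 4.77 cpm in *Cnr1*-/-. These values rest on 31 to 122 reads per library, and 1 library of each label (*Cnr1*+/+ replicate 3 and *Cnr1*-/- replicate 2) lay above the other four. It was below the minimum mean and was not part of the main fit (exact permutation p = 0.4). When no genes were filtered out, its log2 fold change was -0.55 with a standard error of 0.38, which did not pass the nominal threshold. The library with the most *Fcgr4* had a neutrophil marker sum of 287 cpm, and the library with the neutrophil sum of 4067 cpm had the second-highest *Fcgr4*; the part of neutrophil RNA in these values was not tested. In the same stretch of chromosome 1, *Fcgr3* was between 50.9 and 171 times as abundant as *Fcgr4* in a given library.

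The γ chain gene *Fcer1g*, on which all these activating receptors depend, had 277, 226 and 279 cpm in *Cnr1*+/+ and 280, 338 and 302 cpm in *Cnr1*-/-. Every value labelled *Cnr1*-/- lay above every value labelled *Cnr1*+/+, but the nearest pair was separated by little more than 1 cpm. The means were 261 ± 30.0 cpm (SD, n = 3) and 307 ± 29.1 cpm (SD, n = 3). The log2 fold change was 0.24 (standard error 0.12), a fold of 1.18 with a 95% interval of 0.989 to 1.40. It did not pass the test (limma nominal p = 0.0646, adjusted p = 0.829; exact permutation p = 0.1, the smallest possible here). The highest value belonged to the library with the neutrophil markers, and the part of neutrophil RNA in that value was not tested. Without that library the log2 fold change was 0.16, and without *Cnr1*+/+ replicate 2, the lowest, it was 0.14. It passed the nominal threshold when *Cnr1*+/+ replicate 1 or *Cnr1*+/+ replicate 3 was left out.

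*Fcgr2b*, the gene of the inhibitory receptor, had 64.0, 77.3 and 84.0 cpm in *Cnr1*+/+ and 89.0, 76.4 and 89.6 cpm in *Cnr1*-/-. The library labelled *Cnr1*-/- replicate 2 lay among the *Cnr1*+/+ values. The log2 fold change was 0.18 (standard error 0.14), a fold of 1.14 with a 95% interval of 0.928 to 1.39 (limma adjusted p = 0.900). With each library left out in turn the log2 fold change ranged from 0.07, without *Cnr1*+/+ replicate 1, to 0.27, without *Cnr1*+/+ replicate 3. The authors' expectation-maximisation divides reads that match several transcripts. With a tolerance of 0.02 reads, the values of *Fcgr2b* and of *Fcgr3* were whole numbers of reads in 0 of 6 libraries, and so was their sum. Those of *Fcgr1*, *Fcgr4*, *Fcrls*, *Fcgrt*, *Syk* and *Plcg2* were whole in 6 of 6, those of *Fcer1g* in 3 and those of *Inpp5d* in 2. The values of *Fcgr2b* and *Fcgr3* therefore depend on how shared reads were divided, and which other transcripts shared them was not tested.

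The balance between activating and inhibitory receptors sets how strongly a cell responds to IgG complexes, and as a ratio within a library it does not depend on the scaling between libraries. *Fcgr3* made up 68.4% to 71.6% of the summed cpm of the 4 Fcγ receptors, *Fcgr1* 17.5% to 21.7%, *Fcgr2b* 8.83% to 10.96% and *Fcgr4* 0.413% to 1.39%. The shares kept this order in all 6 libraries. The summed cpm of *Fcgr1*, *Fcgr3* and *Fcgr4* divided by that of *Fcgr2b* was 10.01, 8.90 and 10.02 in *Cnr1*+/+ and 8.13, 10.3 and 8.74 in *Cnr1*-/-. The *Cnr1*-/- libraries held both the lowest and the highest ratio. The means were 9.64 ± 0.644 (SD, n = 3) and 9.06 ± 1.13 (SD, n = 3), a log2 difference of -0.09 (exact permutation p = 0.6). Over the 6 fits that each left out a library, the log2 difference lay between -0.19 (without *Cnr1*-/- replicate 2) and -0.02 (without *Cnr1*-/- replicate 1).

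The amount of *Fcer1g* per summed activating receptor was 0.433, 0.329 and 0.332 in *Cnr1*+/+ and 0.388, 0.428 and 0.386 in *Cnr1*-/-. The single highest ratio belonged to *Cnr1*+/+ replicate 1, the library with the fewest reads, whereas the other two *Cnr1*+/+ libraries lay below all of *Cnr1*-/-. The log2 difference was 0.15 (exact permutation p = 0.4). Without *Cnr1*+/+ replicate 1 it was 0.28 (exact permutation p = 0.1, also the smallest for 2 libraries against 3), and without *Cnr1*+/+ replicates 2 or 3 in turn it was 0.08 and 0.09. Leaving out the library with the neutrophil markers gave 0.10.

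**Figure D2:**
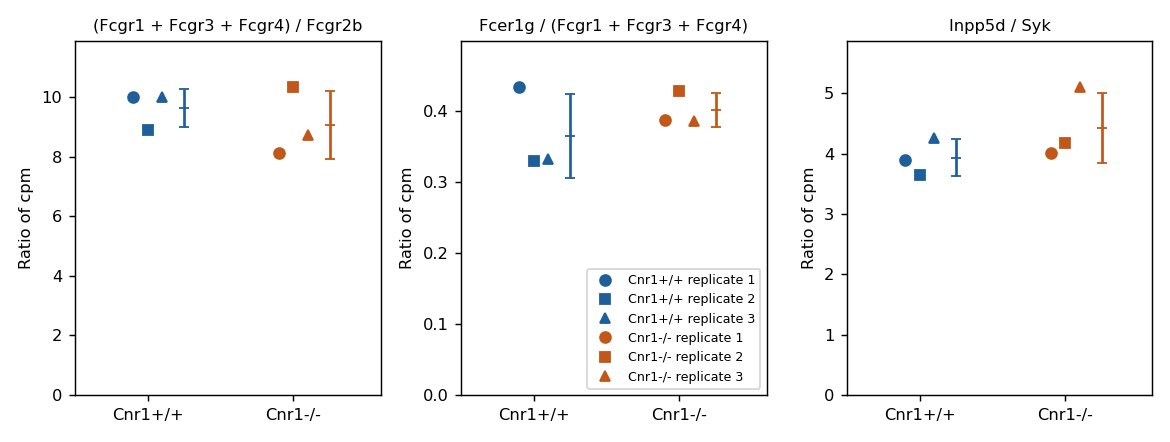
Ratios of cpm within each library for the 3 *Cnr1*+/+ and the 3 *Cnr1*-/- libraries, on axes that start at 0. Symbols are libraries, and the offset bars are group means with SD. The groups overlap in each panel.

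Downstream of the receptors, the kinase gene *Syk* had 44.9, 50.4 and 47.3 cpm in *Cnr1*+/+ and 55.2, 50.9 and 46.1 cpm in *Cnr1*-/-. The groups overlapped, and the log2 fold change was 0.09 (standard error 0.15), a fold of 1.07 with a 95% interval of 0.860 to 1.32 (limma adjusted p = 0.954). The sign turned under quantile normalisation, where the log2 fold change was -0.0024, and with each library left out it ranged from 0.03, without *Cnr1*-/- replicate 1, to 0.16, without *Cnr1*-/- replicate 3. *Plcg2*, whose product cleaves a membrane phosphoinositide to raise calcium, was at nearly the same level as *Syk*. It had 45.4, 46.6 and 54.2 cpm in *Cnr1*+/+ and 52.5, 53.7 and 51.0 cpm in *Cnr1*-/-. The *Cnr1*+/+ library replicate 3 was the highest of all, and the fold was 1.08 with a 95% interval of 0.872 to 1.33 (limma adjusted p = 0.953). Its log2 fold change of 0.11 became 0.06 without *Cnr1*+/+ replicate 1 and 0.19 without *Cnr1*+/+ replicate 3.

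*Inpp5d* encodes SHIP1, which removes a phosphate from the PI3K product and so limits signalling from Fcγ receptors. It had 175, 184 and 201 cpm in *Cnr1*+/+ and 221, 213 and 235 cpm in *Cnr1*-/-. Every *Cnr1*-/- value lay above every *Cnr1*+/+ value. The means were 187 ± 13.4 cpm (SD, n = 3) and 223 ± 11.3 cpm (SD, n = 3). The log2 fold change was 0.26 (standard error 0.12), a fold of 1.20 with a 95% interval of 1.01 to 1.42 (limma nominal p = 0.0388, adjusted p = 0.809; exact permutation p = 0.1). The fold change stayed below the 1.5 that the study used as a threshold. The nominal call was lost when libraries were centred on their medians (log2 fold change 0.18), with quantile normalisation (0.16) and without a variance trend. It was also lost without *Cnr1*+/+ replicate 1 (0.21), *Cnr1*+/+ replicate 2 (0.25), *Cnr1*-/- replicate 1 (0.26) or *Cnr1*-/- replicate 3 (0.22), but not without the library with the neutrophil markers. The ratio of *Inpp5d* to *Syk*, phosphatase to kinase, was 3.90, 3.65 and 4.26 in *Cnr1*+/+ and 4.01, 4.18 and 5.10 in *Cnr1*-/-. The groups overlapped, with a log2 difference of 0.17 (exact permutation p = 0.3), which was 0.06 without *Cnr1*-/- replicate 3.

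The relatives of the Fcγ receptors did not pass the test either. *Fcrls*, an Fc receptor-like gene used as a marker of microglia in the mouse, was the most abundant gene of the set, with 802, 821 and 939 cpm in *Cnr1*+/+ and 789, 812 and 860 cpm in *Cnr1*-/-. The groups overlapped. The log2 fold change was -0.06 (standard error 0.12), a fold of 0.962 with a 95% interval of 0.815 to 1.14 (limma adjusted p = 0.967). *Fcgrt* encodes the heavy chain of the neonatal Fc receptor, which rescues IgG and albumin from degradation. It had 29.4, 27.4 and 38.3 cpm in *Cnr1*+/+ and 26.5, 28.3 and 31.5 cpm in *Cnr1*-/-. The fold was 0.915 with a 95% interval of 0.707 to 1.18 (limma adjusted p = 0.954). *Cnr1*+/+ replicate 3 held the highest value of both genes, and without it the log2 fold changes were 0.015 for each. Without *Cnr1*+/+ replicate 1 that of *Fcrls* was -0.10, and without *Cnr1*+/+ replicate 2 that of *Fcgrt* was -0.23.

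**Figure D3:**
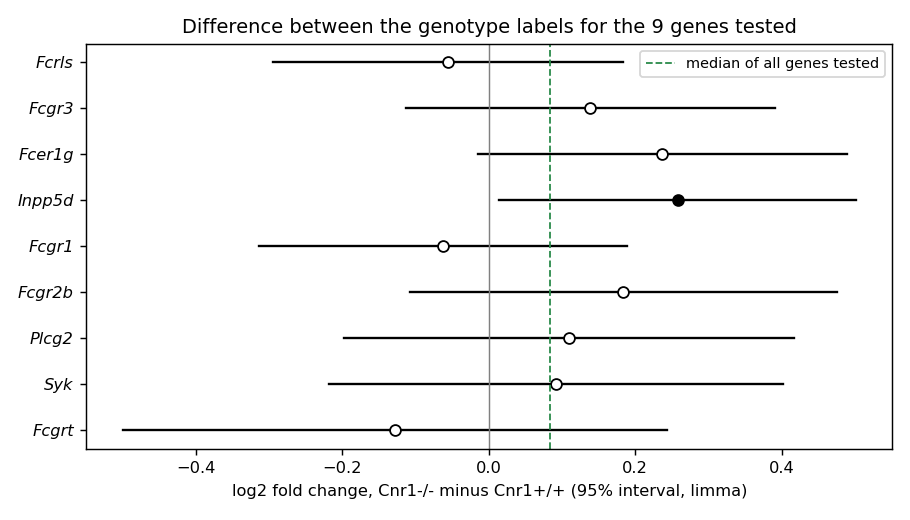
Log2 fold change of *Cnr1*-/- against *Cnr1*+/+ with its 95% interval from limma for the 9 genes tested, with the median of all 6659 genes tested as a dashed line. The filled symbol marks the gene with a nominal p under 0.05, *Inpp5d*, whose interval ends just above 0; the other 8 intervals include 0.

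In order of level, *Fcrls* and *Fcgr3* came first, and neither range over the 6 libraries overlapped that of the next gene. *Fcer1g*, *Inpp5d* and *Fcgr1* followed with overlapping ranges of neighbours, although each library kept that order. *Fcgr2b* came next. *Plcg2* and *Syk* were not separated, with *Plcg2* the higher in 4 of 6 libraries. *Fcgrt* and *Fcgr4* closed the order. The set summed to between 2079 and 2485 cpm per library. *Cnr1*+/+ replicate 3 held the highest value of 6 of the 10 genes, and *Cnr1*+/+ replicate 1 the lowest of 5.

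The coefficient of variation within groups lay between 6.21% for *Inpp5d* and 14.3% for *Fcgrt* among the 9 genes tested. The median over all genes tested was 14.9%, but these reach down to a mean of 10 cpm and were not matched for level. For *Fcgr4* it was 48.7%, where counting alone would give 13.6%. For *Fcgr3* it was 11.7%, where counting would give 1.38%; the sources of the remainder were not separated. For *Syk* and *Plcg2* the spread of 7.53% and 7.13% stood closer to the counting share of 4.72% and 4.65%.

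Because the marker sum of microglia also differed between libraries, each gene was divided by the sum of the 10 microglia markers of its library, a measure chosen after the data were seen. Per 1000 cpm of these markers, *Fcrls* had 55.2, 56.5 and 56.1 cpm in *Cnr1*+/+ and 50.8, 48.9 and 53.6 cpm in *Cnr1*-/-. *Fcgr1* had 10.5, 10.6 and 10.5 cpm in *Cnr1*+/+ and 9.34, 9.84 and 9.54 cpm in *Cnr1*-/-. On this scale both lay lower in every *Cnr1*-/- library, with log2 differences of -0.13 and -0.14 (exact permutation p = 0.1 for each, the smallest possible). *Inpp5d* had 12.04, 12.65 and 12.03 cpm in *Cnr1*+/+ and 14.3, 12.8 and 14.7 cpm in *Cnr1*-/- and remained without overlap, with a log2 difference of 0.18 (exact permutation p = 0.1). *Fcer1g* overlapped, with a log2 difference of 0.16. The background of groups that did not overlap on this scale was 10.4% of all genes tested, 5.08% higher and 5.33% lower, and 3 of the 10 genes did not overlap.

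The rest of the pathway was read from 8 lists with 124 genes, of which 89 were tested. Of these, 4 had a nominal p under 0.05, all higher in *Cnr1*-/-, and 0 had an adjusted p under 0.1 (limma), where 6.02% of all 6659 genes had a nominal p under 0.05, 5.09% higher and 0.931% lower. The median log2 fold change was 0.12, against 0.08 over all genes tested, and 70 of the 89 lay above 0, as did 68.4% of all genes tested. *Ptprj*, a receptor tyrosine phosphatase, had 25.9, 31.5 and 36.9 cpm in *Cnr1*+/+ and 38.0, 52.9 and 50.9 cpm in *Cnr1*-/-. Its groups lay apart, which held for 11% of all genes tested, with a log2 fold change of 0.59 and a standard error of 0.18 (limma nominal p = 0.00273, adjusted p = 0.531; exact permutation p = 0.1). Of the 9 phosphatases and inhibitory regulators, 1 passed the nominal threshold. *Ptpn6*, which encodes the ITIM-binding phosphatase SHP-1, had a log2 fold change of 0.08. *Ptprc*, the CD45 gene, had 0.15 and *Dusp6* 0.13.

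*Prkcb*, a protein kinase C isoform that is activated by the products of phospholipase C, passed that threshold as 1 of 22 tested PI3K, phospholipase and protein kinase C genes, against 6.02% of all genes. It had 50.2, 60.9 and 58.4 cpm in *Cnr1*+/+ and 83.1, 81.0 and 66.7 cpm in *Cnr1*-/-, without overlap, against the same 11%. Its log2 fold change was 0.44 (standard error 0.15, limma nominal p = 0.00532, adjusted p = 0.622; exact permutation p = 0.1). *Ptprj* and *Prkcb* kept a nominal p under 0.05 in each of the 15 alternative fits. The most abundant genes of that list, *Itpr2*, *Prkcd* and *Pik3cd*, had log2 fold changes of 0.19, 0.11 and 0.11 and did not pass.

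In the actin arm of phagocytosis, which drives the membrane around a particle, 2 of 20 genes passed the nominal threshold, against 6.02% of all genes. *Elmo1*, part of a Rac activator, had 84.8, 101 and 83.7 cpm in *Cnr1*+/+ and 118, 112 and 109 cpm in *Cnr1*-/-, with a log2 fold change of 0.34 (limma nominal p = 0.0164, adjusted p = 0.792; exact permutation p = 0.1). *Arpc5*, a subunit of the Arp2/3 complex, had a log2 fold change of 0.39 (limma nominal p = 0.0371, adjusted p = 0.809; exact permutation p = 0.3), but its groups overlapped. Its nominal call was lost in 5 of the 15 alternative fits, the one without the library with the neutrophil markers among them. Over all 15, its log2 fold change ranged from 0.18 to 0.57. The nominal call of *Elmo1* was lost in 2. Of the abundant members *Arpc2*, *Cdc42* and *Rac1*, none passed, with log2 fold changes of 0.07, 0.15 and 0.10.

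In the other lists 0 genes passed the nominal threshold with limma. Of the Src and Tec family kinases that phosphorylate ITAMs, 5 were tested, with a median log2 fold change of -0.0073; the most abundant, *Lyn*, had 231 to 279 cpm and a fold of 0.999. *Csk*, which restrains these kinases, had a log2 fold change of -0.11. The 16 adaptors and ubiquitin ligases tested had a median of 0.19, with *Grb2* at 0.12, *Cbl* at 0.21 and *Blnk* at -0.01. The 5 tested genes of other ITAM adaptors and their receptors had a median of 0.15. *Tyrobp*, the second ITAM adaptor of these cells, had 336 to 437 cpm, more than *Fcer1g* in each group's mean, with a log2 fold change of 0.0085; *Trem2* and *Siglech* had 0.16 and 0.15. The 10 ITIM receptors tested had a median of -0.01, with *Sirpa* at -0.06, *Lair1* at 0.17 and *Cd33* at 0.07. Of other Fc receptor genes only *Fcrl1* reached the minimum mean beside *B2m*, whose product pairs with the neonatal Fc receptor; their log2 fold changes were 0.19 and 0.09. *Trim21*, an Fc receptor of the cytosol, lay between 4.44 and 9.77 cpm.

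**Figure D4:**
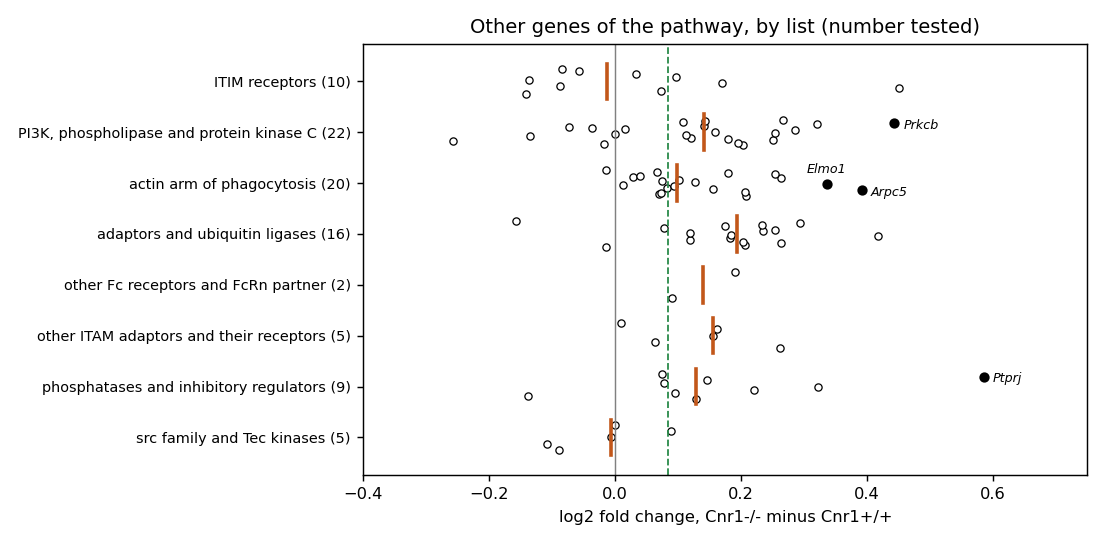
Log2 fold change of *Cnr1*-/- against *Cnr1*+/+ for the 89 tested genes of the 8 lists, with list medians as thick bars and the median of all genes tested as a dashed line. Filled symbols mark the 4 genes with a nominal p under 0.05, which are named; all 4 lie above 0.

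Across the 6 libraries, the genes whose level stayed in the most constant ratio to *Fcer1g* were *Ypel3*, *Map11* and *Tex261*, with SDs of the log2 ratio of 0.042, 0.043 and 0.045 among 6658 genes ranked. Of the tested members, *Plcg2* was the nearest at 0.15 (rank 649), followed by *Inpp5d* at 0.16 (rank 920) and *Fcgr3* at 0.18 (rank 1252). The farthest was *Fcgrt* at 0.25 (rank 3226). For *Syk* the 3 most constant genes were *Ppp3ca*, *Cnih1* and *Sh3gl1*, with SDs of 0.031, 0.035 and 0.044. *Plcg2* was again the nearest member at 0.12 (rank 378) and *Fcgrt* the farthest at 0.27 (rank 4139). These are descriptions over 6 libraries that share their scaling.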

How the data were processed

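The authors trimmed the 3′ reads of 6 libraries (3 *Cnr1*+/+, 3 *Cnr1*-/-, grouped by their labels), aligned them to mm10 with STAR, quantified them per gene with Partek E/M and applied TMM. The values used are the deposited cpm; 0 sample columns were left unmapped. The value of 1 read was derived per library. Between 82.2% and 83.7% of values above 0 were whole reads (tolerance 0.02), so tests for counts were not used.

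Differences were fitted with limma 3.58.1 in R 4.3.3 (lmFit, then eBayes with trend) on log2 (cpm + 0.1). Genes whose mean reached 10 cpm were kept, the model held genotype alone, after the study's one-factor model, with Benjamini-Hochberg adjustment over all genes. This scale understates changes of low genes. Ratios were compared by two-sided exact permutation. The fit was tested on simulated data. Figures were drawn with matplotlib 3.10.9.

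The set and the lists were chosen with earlier results of these data known. Named are the 10 members, *Cnr1*, in each list the genes with a nominal p under 0.05 and the 3 most abundant, and the 3 genes of most constant ratio to *Fcer1g* and *Syk*; other names were chosen after their values were seen, and a few items are not reported here. As alternatives, median centring, quantile normalisation, vooma weights, no variance trend, a replicate block, other pseudocounts (1 and 0.01), other filters (none, and a mean of 20) and leaving out each library in turn were tried. Division by the microglia markers was added after seeing the data. Promoter windows were read from RefSeq (GRCm38.p6, the assembly of mm10).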

Additional observations from a re-analysis of the deposited data

How the results depend on the processing

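At a nominal p under 0.05 (limma), 401 genes were called, of which 84.5% were higher in *Cnr1*-/-; with each library centred on its median 52.5% were higher and with quantile normalisation 45.3%. The count was 993 when none were filtered out (19225 tested), 263 when the minimum was 20 cpm (4126 tested) and 251 to 600 with each library left out in turn. Of the set, 1 gene passed; 0 passed with median centring, quantile normalisation or no variance trend, and 0 to 3 with each library left out, the 3 (*Fcgr3*, *Fcer1g* and *Inpp5d*) without *Cnr1*+/+ replicate 3, where 600 of 6614 genes passed. Of the signalling lists 4 genes passed, 2 without a variance trend and 3 to 10 with each library left out. The cause of these changes was not tested.

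Of 135 log2 fold changes of members in alternative fits, 121 kept their direction and their side of the threshold, 7 (all *Inpp5d*) lost the nominal call, 3 gained it and 4 changed sign. The sign changes were *Syk* with quantile normalisation (-0.0024) and, without *Cnr1*+/+ replicate 3, *Fcgr1* (range with each library left out -0.11 to 0.0020), *Fcrls* (-0.10 to 0.015) and *Fcgrt* (-0.23 to 0.015). The activating to inhibitory ratio, a log2 difference of -0.09, was -0.05 for *Fcgr3* alone (exact permutation p = 0.8), -0.25 for *Fcgr1* alone and -0.74 for *Fcgr4* alone (exact permutation p = 0.3 for each).

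Deviations of same-numbered libraries correlated at -0.06, -0.03 and -0.03 across genes, which cannot show whether those mice were paired by litter or handling. With the replicate block 421 genes, 1 member (*Inpp5d*) and 5 list genes passed.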

Other observations

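*Fcrl1*, an Fc receptor-like gene known from B cells, was listed at 24.9, 17.2 and 16.7 cpm in *Cnr1*+/+ and at 20.4, 23.0 and 22.7 cpm in *Cnr1*-/-. The B cell marker *Cd79a* was at 1.68 cpm or less throughout, and *Cd79b* lay between 4.99 and 8.95 cpm. *Ighm* lay between 102 and 136 cpm, and *Igkc* between 0.399 and 27.6 cpm, highest in *Cnr1*-/- replicate 2. Which transcripts the reads of *Fcrl1* came from was not tested; they are named here because of their values.

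*Ceacam1*, an ITIM receptor gene chosen after its values were seen, had 40.6 cpm in the library labelled *Cnr1*-/- replicate 2, which held the neutrophil markers, against 16.6 to 23.4 cpm in the other 5 libraries. Its log2 fold change of 0.45 did not pass the test (limma adjusted p = 0.829; exact permutation p = 0.2). It passed the nominal threshold in 5 of 15 alternative fits, namely with no filter, with the replicate block, and without *Cnr1*+/+ replicate 2, *Cnr1*-/- replicate 1 or *Cnr1*-/- replicate 3, but not without *Cnr1*-/- replicate 2.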
